A study of Mus musculus with 6 samples.

Results

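The 9 genes described here are the SETD family members other than Setd2 that were named for this account, namely Setd1a, Setd1b, Setd3, Setd4, Setd5, Setd6, Setd7, Setdb1 and Setdb2. They were taken by gene symbol from a table of 46095 genes, and the rule that selects them uses no measured value, although earlier results of these data were known when the list was drawn up. A total of 8 of the 9 had enough reads to be tested, among 14611 tested genes. Setdb2 was the member left out, with 0 to 4 reads in each library. Setd7 was the one member called between the genotype labels: it was 2.68-fold higher under the VHL-KO;SETD2-KO label than under the VHL-KO label, at an unadjusted p only.

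SETD proteins carry a SET domain, the catalytic fold that moves a methyl group from S-adenosylmethionine to a lysine, or in the case of SETD3 to a histidine. SETD1A and SETD1B write methylation on lysine 4 of histone H3, a mark of active promoters, while SETDB1 and SETDB2 write methylation on lysine 9 of the same histone, a mark of silent chromatin. SETD7 adds a single methyl group to lysine 4 of histone H3 and to many proteins outside chromatin, and SETD6 is best known for methylating the NF-kappaB subunit RelA. SETD2, the enzyme deleted in this study, writes trimethylation on lysine 36 of histone H3 along transcribed genes.

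The libraries came from primary tubular epithelial cells (PTECs) of C57 mice aged 10 weeks, 3 mice for each label. Mice of the VHL-KO label carried Ksp-Cre and VHL fl/fl. Those of the VHL-KO;SETD2-KO label, called the double-KO label here, carried Ksp-Cre, VHL fl/fl and Setd2 fl/fl. By genotype VHL was thus deleted in both groups, and there was no group with intact VHL. Ksp-Cre is driven by the Cdh16 promoter, which is active in renal tubule epithelium, and cells in which it is silent keep both genes. The comparison asks which transcripts differ when Setd2 is deleted in VHL-deficient tubular cells. Reads counted on each gene were scaled to each library's normalised total (CPM), and each change is given as the log2 ratio of the double-KO label over the VHL-KO label.

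The 6 libraries held between 11168552 and 17883466 counts, so that 3 counts, taken as the detection floor, corresponded to 0.168 to 0.269 CPM. The library labelled VHL-KO replicate 4 stood apart. Its median rank correlation with the other libraries was 0.741, against 0.942 to 0.961 for the others, and mitochondrial genes took 11.3% of its counts, against 25.9% to 36.4%. The log2 change of each tested member is given with and without it. Setd2 itself had 1179, 799 and 132 counts in the VHL-KO libraries and 1499, 1019 and 1429 in double-KO replicates 2, 3 and 4. As a group, the libraries labelled as lacking Setd2 did not have fewer Setd2 reads. The counts thus do not show the deletion that the label names, and a library's name here is only its label. Counts per gene cannot separate reads of the deleted exons from reads of the other exons. Vhl reads were also present in every library. They were at 14.1, 12.9 and 25.8 CPM in VHL-KO replicates 1, 2 and 4 and 14.4, 17.9 and 11.9 CPM in double-KO replicates 2, 3 and 4. With no group of intact VHL to compare, these levels cannot show its deletion.

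Setd7 lies on chromosome 3 on the minus strand, at chr3:51515318-51560823 in GRCm38.p6 (RefSeq), and has 1 coding transcript of 7411 bases in GENCODE. The 194 bases directly upstream of its annotated GENCODE start, chr3:51560880-51561073 read on the minus strand, are shown because Setd7 was the one member whose groups separated, and CpG dinucleotides are in capitals:
Setd7: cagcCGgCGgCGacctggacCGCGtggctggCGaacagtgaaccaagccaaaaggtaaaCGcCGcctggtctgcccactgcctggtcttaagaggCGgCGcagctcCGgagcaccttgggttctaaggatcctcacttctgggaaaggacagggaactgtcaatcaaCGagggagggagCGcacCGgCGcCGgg
This stretch holds 16 CpG dinucleotides. In windows of 250 bases upstream of RefSeq starts, Setd7 had 17, and the median over all 32851 windows was 6. The other members with a window had 13 or more (Setdb1 13, Setd6 20, Setd4 24, Setdb2 24, Setd1a 25, and Setd3 33 and 31 at its 2 starts), except Setd5, which had 0. The one Setd5 window in the table lies at chr6:113104685-113104934, inside the annotated gene (chr6:113077262-113153432), so it does not cover the bases upstream of the gene's first start. The letters ACGTG, a form of the core of a hypoxia response element, were searched on both strands because VHL-deficient cells accumulate hypoxia-inducible factors. ACGTG occurred in 0 of the 9 windows of the 8 members with a window and in 16.6% of all windows. These counts describe ACGTG in these windows only. The other form of the core, GCGTG, was not counted, and it occurs in the Setd7 stretch above.

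Across the family, 1 of the 8 tested members was called higher and 0 were called lower at an unadjusted p under 0.05 and a 1.5-fold change or more (edgeR quasi-likelihood test). Over all tested genes 2.65% were called higher and 4.68% lower by the same rule. With Benjamini-Hochberg adjustment over all tested genes 0 of the 8 members were called, as were 0.00684% of all genes. The CPM of the labels did not overlap, with the double-KO label higher, for 1 member (9.62% of all tested genes), and they did not overlap in the lower direction for 0 members (11% of all tested genes). The log2 changes of 5 members were above 0 and those of 3 were below, with a median of 0.22 against 0.0093 over all tested genes. A count of 1 among 8 is too small to be read against these shares.

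**Figure D1:**
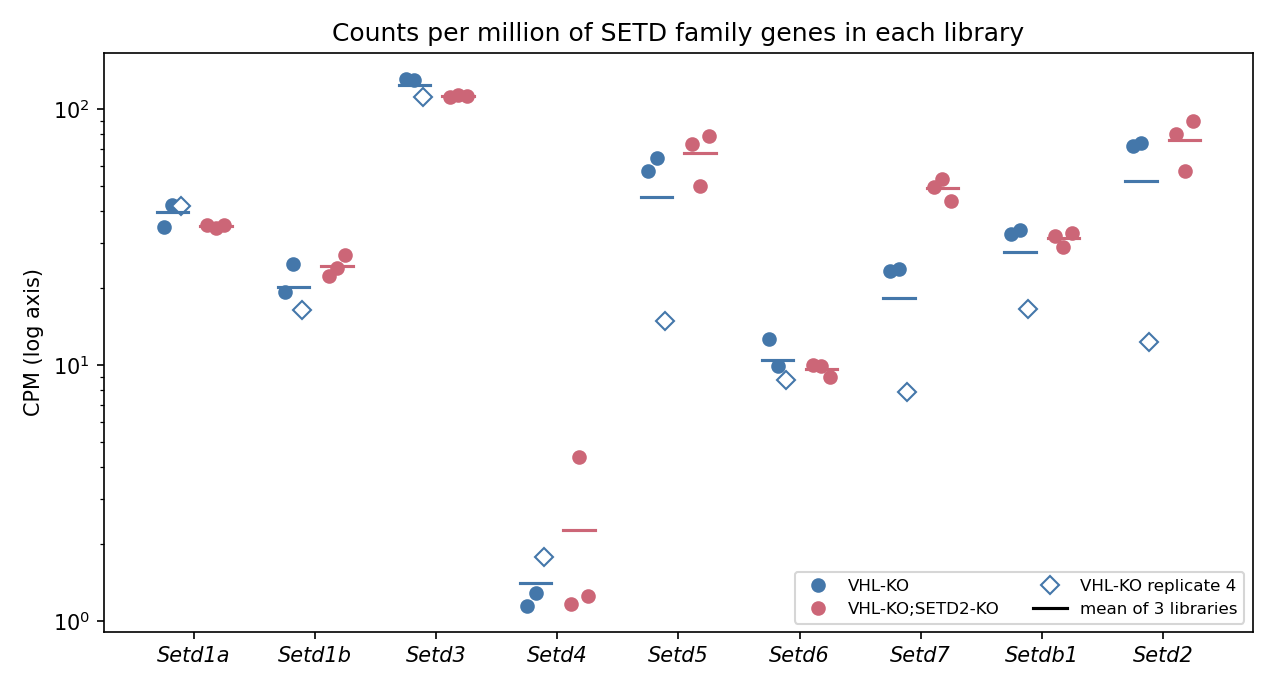
Level of each tested member and of Setd2 in every library, in CPM on a log axis, with VHL-KO in blue, VHL-KO;SETD2-KO in red, VHL-KO replicate 4 as an open diamond and the mean of 3 libraries as a line. Setd7 is the only member with a gap between the labels, and VHL-KO replicate 4 is the lowest library for Setd1b, Setd3, Setd5, Setd6, Setd7, Setdb1 and Setd2.

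Setd7 had 386, 256 and 84 counts in the libraries of VHL-KO replicates 1, 2 and 4, which corresponded to 23.4, 23.7 and 7.86 CPM. In double-KO replicates 2, 3 and 4 it had 938, 949 and 700 counts, or 49.8, 53.4 and 43.9 CPM. Every double-KO library thus lay above every VHL-KO library, and VHL-KO replicates 1 and 2 lay close together while replicate 4 was far below them. The means were 18.3 ± 9.06 CPM (SD, n = 3) and 49.1 ± 4.81 CPM (SD, n = 3). The log2 change was 1.42 (standard error 0.49, 95% interval 0.29 to 2.55), with an unadjusted p of 0.0201 and an adjusted p of 0.625 in edgeR's quasi-likelihood test. A two-sided exact permutation test of the 20 label assignments gave p = 0.1, the smallest that 3 against 3 libraries allow.

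The size of the Setd7 difference depended on VHL-KO replicate 4, and its direction did not. Without that library the log2 change was 1.06, with an unadjusted p of 0.000323 and an adjusted p of 0.0775 (edgeR). Over the 16 alternative fits the log2 change lay between 1.00 and 1.77, and the adjusted p, where one was given, between 8.96e-06 and 0.982. The call at an unadjusted p under 0.05 was lost in 3 of the 16 fits. In edgeR these were the fits without double-KO replicate 2 (1.41, unadjusted p = 0.0556, adjusted p = 0.98), without double-KO replicate 3 (1.36, 0.0583 and 0.753) and with the replicate number as a block (1.77, 0.137 and 0.951). The adjusted p fell under 0.05 in 2 fits, limma-voom with sample quality weights (1.00, adjusted p = 0.00553) and DESeq2 without VHL-KO replicate 4 (1.05, adjusted p = 8.96e-06).

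**Figure D2:**
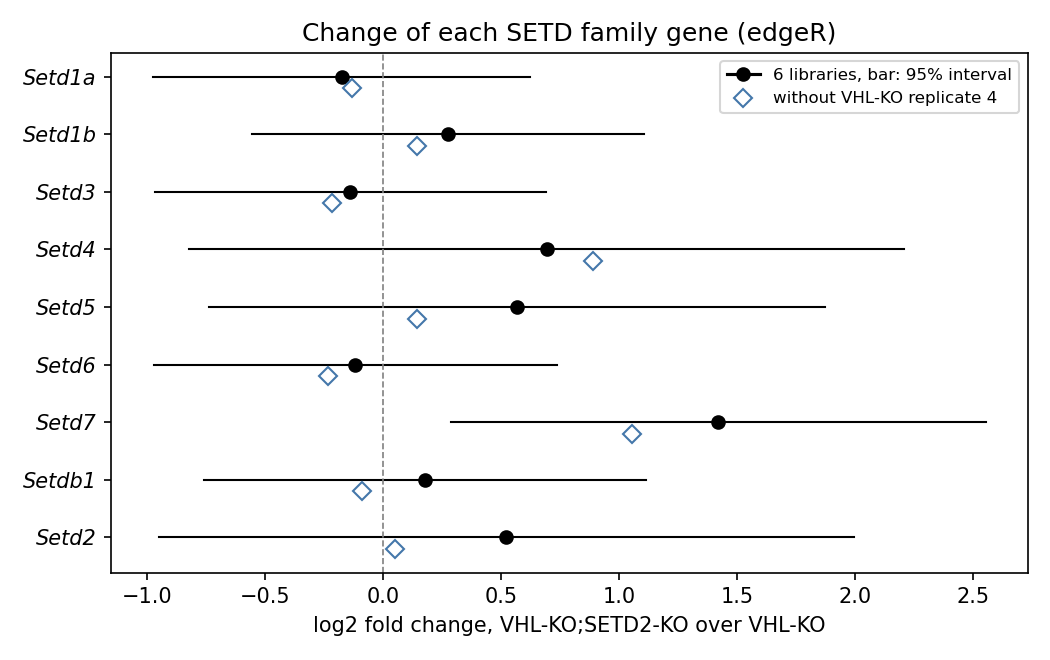
Log2 fold change of each tested member and of Setd2, VHL-KO;SETD2-KO over VHL-KO, from edgeR with all 6 libraries (black, with the 95% interval) and without VHL-KO replicate 4 (open diamonds). Only the interval of Setd7, 0.29 to 2.55, lies wholly above 0, and Setdb1 moves from 0.18 to -0.091 without that library.

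A noncoding gene on the opposite strand, 5031434O11Rik (chr3:51559985-51567117), overlaps the first 839 bases of Setd7 in RefSeq. That gene also spans the 194 bases shown above upstream of Setd7. It had 4, 0 and 0 counts in VHL-KO replicates 1, 2 and 4, and 10, 19 and 8 in double-KO replicates 2, 3 and 4. Those counts were too low for the test of all genes. The libraries were directional, but whether the counting used strand is not stated. Antisense reads amounted to at most 2.00% of those of Setd7 in any library. How reads in the shared bases were assigned is unknown, and their part in the Setd7 difference was not tested.

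Cell type markers also differed between the labels. Of 8 proximal tubule markers 3 were called lower under the double-KO label (edgeR, unadjusted p), against 4.68% of all tested genes, namely the phosphate transporter Slc34a1, the organic anion transporter Slc22a6 and the water channel Aqp1. The summed level of the 8 was 12202 to 24973 CPM in the VHL-KO libraries and 5748 to 7966 CPM in the double-KO libraries. Of 3 podocyte markers 2 were called higher, against 2.65% of all tested genes, the slit diaphragm gene Nphs1 and the transcription factor Wt1, and the summed level of the 3 was 1047 to 1526 CPM against 1366 to 3423 CPM. The calcium-binding protein Calb1, of 6 thick limb and distal tubule markers, and the proton pump subunit Atp6v1g3, of 4 collecting duct markers, were also called higher. None of 4 endothelial, 5 fibroblast and 5 leukocyte markers was called. Their summed levels were 777 to 1497, 72.5 to 379 and 102 to 275 CPM in the VHL-KO libraries, against 1090 to 3678, 78.8 to 191 and 58.5 to 254 CPM. No marker was at 0 counts in all libraries, and proximal tubule markers were present in each.

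Within the double-KO label, replicate 3 had the highest Setd7 level, 53.4 CPM, against 49.8 and 43.9 CPM in replicates 2 and 4. The same library had the lowest summed podocyte level, 1366 CPM against 3423 and 3096 CPM, and the lowest endothelial level, 1090 CPM against 3678 and 2969 CPM. It had the highest summed level of proximal tubule markers, 7966 CPM against 5748 and 6882 CPM. Thick limb and distal tubule markers were also highest there, at 4772 CPM against 1813 and 2119 CPM, as were collecting duct markers, at 143 CPM against 52.6 and 55.8 CPM. Atp6v1g3 put the libraries in the same order as Setd7 within both labels. It was at 3.52, 8.33 and 2.71 CPM in VHL-KO replicates 1, 2 and 4 and 14.5, 24.8 and 11.8 CPM in double-KO replicates 2, 3 and 4. Atp6v1g3 was picked from all markers after its values were seen, and few orders are possible with 3 libraries per label. The other collecting duct markers did not follow Setd7 in this way. Aqp2, Aqp3 and Slc4a1 were highest in VHL-KO replicate 4, where Setd7 was lowest, at 258, 114 and 26.9 CPM. In VHL-KO replicates 1 and 2 they were at 2.73 and 9.07, 38.3 and 31.5, and 1.45 and 6.38 CPM. The part of cell makeup in the Setd7 difference was not tested, and in bulk RNA fewer cells of a type and less RNA per cell cannot be told apart. Double-KO replicate 3 also differed from the other 5 libraries in Xist, the X-inactivation RNA, with 11704 counts against 0 to 4. The sex of these mice is not given in the sources used here. The part of sex in the Setd7 difference was not tested.

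Among the writers of lysine 4 methylation, Setd1a and Setd1b encode the catalytic subunits of the SET1 complexes. Setd1a was measured at 34.5, 42.1 and 41.9 CPM in VHL-KO replicates 1, 2 and 4, and at 35.4, 34.2 and 35.3 CPM in double-KO replicates 2, 3 and 4. The double-KO libraries lay close together and near the level of VHL-KO replicate 1, so the labels overlapped. The log2 change was -0.18 (standard error 0.35, 95% interval -0.98 to 0.62, adjusted p = 0.860 in edgeR), which leaves room for a fall or a rise of 1.5-fold. Setd1b was measured at 19.3, 24.8 and 16.5 CPM, and at 22.4, 24.0 and 26.9 CPM in the same order. Here VHL-KO replicate 2 lay among the double-KO libraries. Its log2 change was 0.27 (standard error 0.36, 95% interval -0.56 to 1.11, adjusted p = 0.800 in edgeR).

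The proteins that work with SETD1A and SETD1B showed no called gene. All 7 shared and SET1-specific subunits were tested (Wdr5, Rbbp5, Ash2l, Dpy30, Cxxc1, Wdr82 and Hcfc1), with 0 called in either direction by edgeR, a median log2 change of -0.03 and a lowest unadjusted p of 0.407. In VHL-KO replicate 4 the scaffold Wdr5 was at 71.9 CPM, against 30.4 to 37.5 CPM in the other 5 libraries. The CpG-binding subunit Cxxc1 was likewise at 83.1 CPM against 27.5 to 44.4 CPM. Of the MLL methyltransferases and their subunits 9 of 10 were tested and 0 called, with 8 log2 changes above 0 and a median of 0.38. Psip1, which tethers MLL to chromatin, and the lysine 27 demethylase Kdm6a were higher in every double-KO library than in every VHL-KO library. Their levels in VHL-KO replicate 4 were 3.18 and 4.02 CPM, against 22.9 CPM or more for Psip1 and 35.5 CPM or more for Kdm6a in the other libraries. All 5 lysine 4 demethylases were tested and 0 called, with a median log2 change of 0.30. Without VHL-KO replicate 4 the log2 changes of the MLL and demethylase genes lay on both sides of 0. They ran from -0.12 (Paxip1) to 0.28 (Psip1) for the MLL list and from -0.26 (Kdm1b) to 0.14 (Kdm1a) for these demethylases.

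Among the writers of lysine 9 methylation, Setdb1, which silences retroelements together with the KRAB corepressor Trim28, was measured at 32.6, 33.8 and 16.6 CPM in VHL-KO replicates 1, 2 and 4. In double-KO replicates 2, 3 and 4 it was at 32.04, 28.9 and 32.7 CPM. The 5 libraries other than VHL-KO replicate 4 lay between 28.9 and 33.8 CPM, with the labels interleaved. The log2 change was 0.18 (standard error 0.41, 95% interval -0.76 to 1.11, adjusted p = 0.882 in edgeR), and it turned to -0.091 without VHL-KO replicate 4 (adjusted p = 0.726). Setdb2 had 4, 1 and 0 counts under the VHL-KO label and 0, 1 and 2 under the double-KO label. Its counts reached 3 in 1 of the 6 libraries, so a difference in Setdb2 was not detectable at this depth. A second row of the table, for the readthrough gene of Setdb2 and Phf11c, held 0 counts in all 6 libraries.

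SETDB1 acts with the cofactor ATF7IP and with the HUSH complex, and its mark is bound by the HP1 proteins encoded by Cbx1, Cbx3 and Cbx5. Of these 10 partners and readers 9 were tested and 0 called by edgeR (lowest unadjusted p = 0.204), with 8 log2 changes above 0 and a median of 0.56. Without VHL-KO replicate 4 their log2 changes lay on both sides of 0, from -0.28 for Fam208a (Tasor) to 0.32 for Mphosph8. The cofactor Atf7ip was at 31.5, 30.3 and 16.2 CPM under the VHL-KO label and at 40.2, 32.8 and 42.2 CPM under the double-KO label, without overlap (log2 change 0.56). The readers Cbx1 and Cbx5 also did not overlap, with log2 changes of 0.60 and 0.62. For Cbx1, VHL-KO replicate 4 was at 9.54 CPM and the other 2 VHL-KO libraries were at 32.1 and 34.2 CPM, close to the 36.7 to 40.2 CPM of the double-KO libraries. Trim28 went the other way, at 184 CPM in VHL-KO replicate 4 and 50.7 to 66.5 CPM elsewhere. Its log2 change was -0.60 with all 6 libraries and 0.26 without VHL-KO replicate 4. Of the other lysine 9 methyltransferases 3 of 4 were tested and 0 called, and of the lysine 9 demethylases 3 of 3 were tested and 0 called. The latter included Kdm3a, a hypoxia-inducible gene, at 45.8, 50.1 and 4.396 CPM under the VHL-KO label and 46.7, 39.9 and 58.6 CPM under the double-KO label.

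Setd5, whose protein is found with the NCoR-HDAC3 corepressor, had the lowest level in VHL-KO replicate 4 relative to replicates 1 and 2 of the 8 tested members. It was measured at 57.0, 64.2 and 14.9 CPM in VHL-KO replicates 1, 2 and 4 and at 73.3, 50.1 and 78.2 CPM in double-KO replicates 2, 3 and 4. Double-KO replicate 3 lay below VHL-KO replicates 1 and 2, so the labels overlapped. The log2 change was 0.57 (standard error 0.57, 95% interval -0.74 to 1.87, adjusted p = 0.748 in edgeR), and 0.15 without VHL-KO replicate 4. Setd2 had a like spread over the libraries, at 71.5, 73.9 and 12.3 CPM and at 79.6, 57.4 and 89.6 CPM, with double-KO replicate 3 below VHL-KO replicates 1 and 2. Its log2 change was 0.52 (standard error 0.64, adjusted p = 0.787 in edgeR), and 0.052 without VHL-KO replicate 4. Of 6 NCoR-HDAC3 subunits 5 were tested and 0 called, with a median log2 change of 0.05. The deacetylase Hdac3 had the lowest unadjusted p of them, 0.150, at 34.1, 32.9 and 77.3 CPM against 27.4, 35.0 and 24.0 CPM.

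Setd3, which methylates a histidine of actin, was the member with the most counts. It was measured at 130.6, 130.1 and 111.3 CPM in VHL-KO replicates 1, 2 and 4 and at 111.8, 113.7 and 112.4 CPM in double-KO replicates 2, 3 and 4. The double-KO libraries lay close together, between VHL-KO replicate 4 and the other 2 VHL-KO libraries. The log2 change was -0.14 (standard error 0.36, 95% interval -0.97 to 0.69, adjusted p = 0.896 in edgeR). Setd6 was at 12.6, 9.90 and 8.79 CPM and at 9.99, 9.91 and 8.97 CPM, a range that all libraries shared. Its log2 change was -0.12 (standard error 0.37, 95% interval -0.97 to 0.74, adjusted p = 0.915 in edgeR). Setd3 shares bases with Ccnk, Setd6 with Cnot1 and Setdb1 with Cers2 in RefSeq, and the way reads in the shared bases were counted is not stated.

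Setd4, a less studied lysine methyltransferase, was the tested member with the fewest counts. Its counts were 19, 14 and 19 in VHL-KO replicates 1, 2 and 4 and 22, 78 and 20 in double-KO replicates 2, 3 and 4. Double-KO replicate 3, at 4.39 CPM, stood above the other 5 libraries, which lay between 1.15 and 1.78 CPM. The log2 change was 0.69 (standard error 0.66, 95% interval -0.82 to 2.21, adjusted p = 0.735 in edgeR), and without double-KO replicate 3 it was -0.20.

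VHL-KO replicate 4 did not depart from the other VHL-KO libraries equally for every member. Its CPM was 1.09 times the mean of VHL-KO replicates 1 and 2 for Setd1a, 0.854 times for Setd3, 0.781 times for Setd6 and 0.746 times for Setd1b. The ratio was 0.499 for Setdb1, 0.334 for Setd7 and 0.245 for Setd5, and for Setd2 it was 0.170. For Setd4 it was 1.45, from few counts. Of all tested genes 36.3% were under 0.5 of that mean, so a ratio like that of Setdb1, Setd7 or Setd5 was common in this library. In the fit without this library the log2 changes were -0.13 for Setd1a, 0.14 for Setd1b, -0.21 for Setd3, 0.89 for Setd4 and -0.23 for Setd6, and the other tested members are given with their values. Ordered by ratio, 9.16% of tested genes lay below Setd2, 17.0% below Setd5, 24.9% below Setd7 and 33.7% below Setdb1.

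The makeup of the family's own reads gives a comparison that does not depend on the scaling of libraries. Setd7 took 7.51% of the reads of the 9 genes in VHL-KO replicate 1 (95% exact binomial interval 6.81% to 8.27%), 7.18% in replicate 2 (6.35% to 8.08%) and 3.58% in replicate 4 (2.86% to 4.41%). In double-KO replicates 2, 3 and 4 it took 14.8% (14.0% to 15.7%), 16.8% (15.8% to 17.8%) and 12.9% (12.0% to 13.8%). The intervals of the labels were apart, and they cover counting error only. The mean share was 6.09% ± 2.18 (SD, n = 3) against 14.8% ± 1.92 (SD, n = 3), higher by 8.75 percentage points (two-sided exact permutation test, p = 0.1, the smallest possible).

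Setd3 took 41.9%, 39.4% and 50.7% of the family's reads under the VHL-KO label and 33.3%, 35.7% and 33.1% under the double-KO label, lower without overlap (exact permutation test, p = 0.1). The share of Setd1a was 14.3% ± 4.23 (SD, n = 3) against 10.5% ± 0.183 (SD, n = 3), also lower without overlap (exact permutation test, p = 0.1). Shares sum to the whole, so a higher share of one gene lowers those of the others, and the lower shares of Setd3 and Setd1a are not separate observations. The shares of the other 6 members overlapped between the labels. Against single members, Setd7 had 0.678, 0.563 and 0.188 reads per Setd1a read in VHL-KO replicates 1, 2 and 4, and 1.41, 1.56 and 1.25 in double-KO replicates 2, 3 and 4. Per Setdb1 read it had 0.717, 0.701 and 0.475, then 1.56, 1.85 and 1.34. Setdb1 was itself reduced in VHL-KO replicate 4, and this ratio varied less among the VHL-KO libraries than the one to Setd1a.

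**Figure D3:**
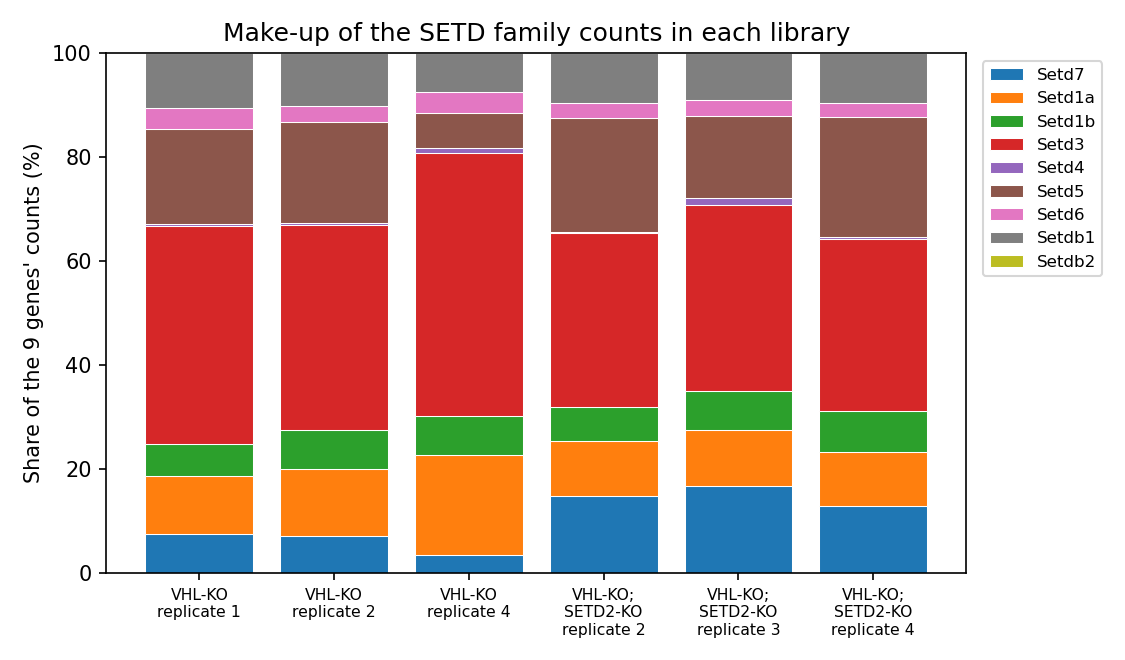
Share of the summed counts of the 9 SETD family genes taken by each gene, in percent, as one stacked bar per library. Setd7, the lowest segment, takes 3.58% to 7.51% in the VHL-KO libraries and 12.9% to 16.8% in the VHL-KO;SETD2-KO libraries.

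Levels of different members were compared per kilobase of transcript, as CPM divided by the median length of the gene's coding transcripts. Setd3 was highest, at 51.9 ± 4.61 CPM per kilobase (SD, n = 3) for VHL-KO and 47.2 ± 0.407 for the double-KO label. It was also the highest in every library when the longest transcript was used (45.0 and 40.9). Setd1a was second with the median length (43.1 ± 4.73 and 38.2 ± 0.685), but its coding transcripts differ widely, and with the longest it was at 6.09 and 5.39. Its place in the order was thus set by the choice of length. Setd6 was at 9.97 ± 1.88 and 9.20 ± 0.542 and Setd5 at 6.95 ± 4.08 and 10.3 ± 2.30, and these levels did not differ beyond their spread. With the longest transcript Setd6 was at 6.11 and 5.64, below Setd5 at 6.72 and 9.95, so the order of these members also depends on the length used. Setdb1 was at 5.98 ± 2.08 and 6.76 ± 0.437 CPM per kilobase. Setd7 was at 2.47 ± 1.22 CPM per kilobase under the VHL-KO label, near Setd1b at 2.72 ± 0.569. Under the double-KO label Setd7 was at 6.62 ± 0.650, near Setdb1 and above Setd1b at 3.28 ± 0.309. Setd4, at 1.07 ± 0.250 and 1.73 ± 1.40, had the lowest mean of the tested members under each label. Single libraries ranged from 0.879 to 3.35 for Setd4 and from 1.06 to 7.21 for Setd7.

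The 14 other SET domain methyltransferases in the list, which include the Ezh, Kmt5 and Smyd genes, were all tested, and 0 were called by edgeR, with 7 log2 changes above 0, 7 below and a median of 0.02. The lowest unadjusted p was 0.105, for Smyd5, at 11.6, 7.96 and 35.3 CPM under the VHL-KO label and 8.02, 9.63 and 8.53 CPM under the double-KO label. Suv420h1 (Kmt5b) was higher without overlap, and Suv420h2 (Kmt5c) and Setmar were lower without overlap. Setmar was at 4.49, 4.44 and 4.12 CPM against 3.45, 2.70 and 2.82 CPM, with VHL-KO replicate 4 close to its group, and its log2 change was -0.54 (standard error 0.42, adjusted p = 0.687 in edgeR). Over all 8 lists 55 of 59 genes were tested and 0 were called higher or lower. The labels did not overlap for 6 of the 55 in the higher direction, against 9.62% of all tested genes, and for 2 in the lower, against 11%. Without VHL-KO replicate 4 the log2 changes of the 6 were 0.28 for Psip1, 0.24 for Kdm6a, 0.31 for Atf7ip, 0.20 for Cbx1, 0.28 for Cbx5 and 0.20 for Suv420h1, and those of the 2 were -0.29 for Suv420h2 and -0.58 for Setmar. None of the 8 was called in that fit (lowest unadjusted p = 0.0844 by edgeR, for Setmar).

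**Figure D4:**
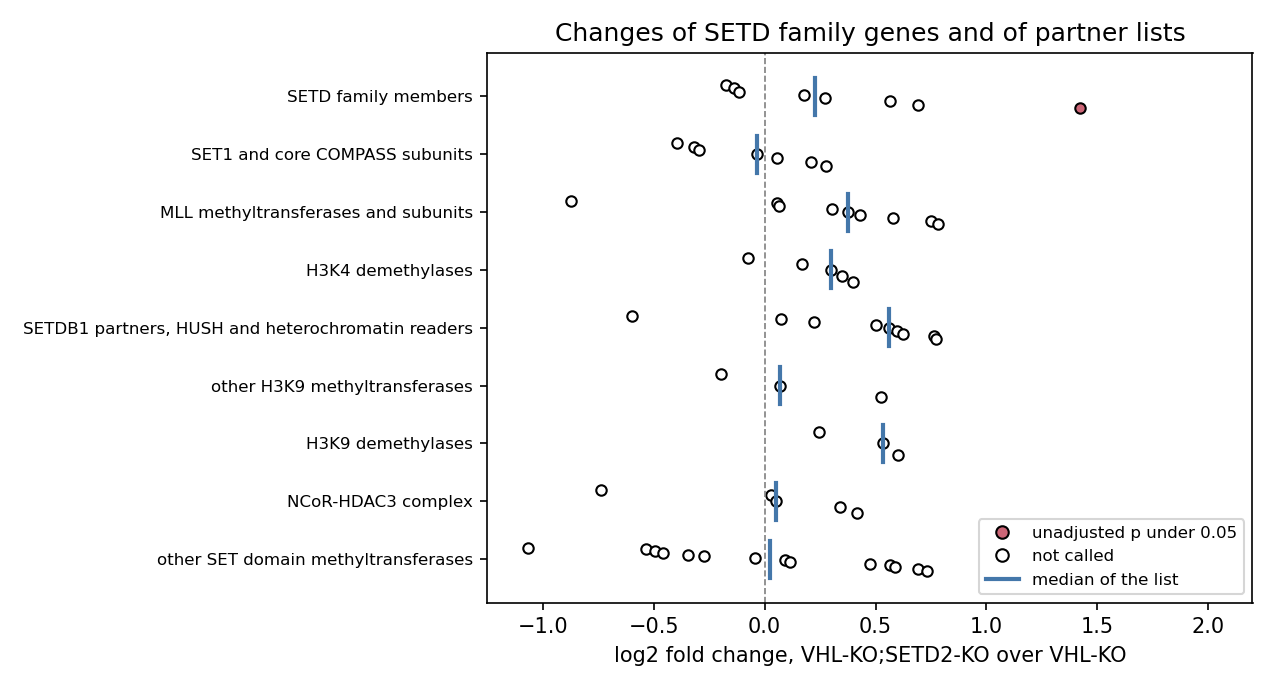
Log2 fold change, VHL-KO;SETD2-KO over VHL-KO, of each tested SETD family member and of each tested gene in 8 lists of partner and related genes, with the median of each list as a vertical line and filled points for an unadjusted p under 0.05. Setd7, at 1.42, is the only filled point, and the list medians lie between -0.03 and 0.56.

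The genes whose log2 CPM followed that of each member most closely were listed as a description, over 6 libraries that share the 2 labels and the departure of VHL-KO replicate 4. For Setd7 they were Bcl2, an inhibitor of apoptosis, and the histone gene H3f3c, each with a Pearson r of 0.995. Without VHL-KO replicate 4 the r was 0.980 for Bcl2 and 0.998 for H3f3c. Bcl2 then ranked 74 and H3f3c 5 by r to Setd7, so neither stayed among the closest 2. For Setd1a they were Rpl10a and Cx3cr1, for Setd1b TrnP and Tbc1d8, for Setd3 Phyh and Ghr, and for Setd4 Cgn and Dio1. For Setd5 they were Akirin1 and Phip, for Setd6 Hoxa10 and Tbccd1, and for Setdb1 Btaf1 and Rlim. Genes with r over 0.95 were counted among the tested genes with a mean log2 CPM of at least 1. They numbered 2444 for Setdb1, 2106 for Setd5 and 262 for Setd7, against 33 or fewer for the other 5 tested members. Of the 16 genes named, 5 were again among the closest 2 when VHL-KO replicate 4 was left out.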

How the data were processed

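RNA was measured in PTECs of 6 mice, grouped by the genotype in the labels. The authors sequenced directional paired-end libraries and deposited raw read counts per gene for each library. The submitters' processing notes name HISAT2 2.0.4 and GRCm38, without their roles. The counting program, annotation and use of strand are not given in the sources used here. Columns of single samples left unused numbered 0.

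Counts were scaled by TMM and tested by quasi-likelihood in edgeR 4.0.16 (R 4.3.3), with genotype as the single factor. The filter filterByExpr kept 14611 of 46095 genes, and p-values were adjusted over all of them by the Benjamini-Hochberg method. Genes were called at p under 0.05, unadjusted or adjusted, together with a 1.5-fold change or more. Log2 CPM used a prior count of 2. Single values were compared by two-sided exact permutation. P-values of the fits set the difference between labels against the spread between these mice. The exact permutation p ranks the observed difference among the 20 label assignments. Intervals of log2 changes come from the edgeR fit and include that spread. Intervals of read shares and the detection floors cover counting error only. Library totals are given with the results.

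The members and lists were chosen with earlier results of these data known. Genes named were the 9 members, Setd2, list genes called at an unadjusted p, and, for each tested member, the 2 genes with the highest correlation among those with a mean log2 CPM of at least 1. The other list genes, Vhl, 5031434O11Rik and Xist were chosen after their values were seen. So were the shares of the family's reads, the ratios between members and the comparison of VHL-KO replicate 4 with replicates 1 and 2. Coordinates and upstream sequence came from RefSeq (GRCm38.p6) and transcript lengths from GENCODE M21. All 9 members matched by symbol. Mitochondrial genes were those RefSeq places on the mitochondrial chromosome. Alternatives were RLE factors, library sizes without the 20 highest genes or mitochondrial genes, 2 filters, DESeq2 1.42.0, limma-voom (limma 3.58.1) with and without sample quality weights, a replicate block and leaving out each library. DESeq2 without VHL-KO replicate 4 was chosen after seeing the data. One marker gene is not reported here, and it was left out of its list's counts and sums. The edgeR and DESeq2 tests, and limma-voom with and without sample quality weights, were also run on simulated counts with known changes. The other alternatives were not, and the simulated counts held no library that departed like VHL-KO replicate 4.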

Additional observations from a re-analysis of the deposited data

How the results depend on the processing

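The log2 change of Setd7 kept its direction in all 16 alternatives, and its lost and gained calls stand with its values. For the other members no alternative gave a call. Library sizes without the 20 highest genes moved the median of all genes from 0.0093 to 0.28, and Setd1a, Setd3 and Setd6 turned to 0.11, 0.12 and 0.14, all below that median. Under it 732 genes were called higher and 355 lower, against 387 and 684 in the reported fit. The median was also moved by limma-voom, to 0.13, and by the replicate block, to 0.11. Both labels include a replicate 2 and a replicate 4. Same-numbered libraries deviated together with r = 0.16 for number 2 and -0.32 for number 4. So few pairs cannot show whether same-numbered mice were paired, and the sources used here state no pairing. With the replicate block 0 members were called higher, 93 genes were called higher and 54 lower, and Setd4 turned to -0.32 and Setd6 to 0.021.

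Limma-voom with sample quality weights gave 1 member at an adjusted p (Setd7), 2124 genes higher, 1527 lower and 2657 at an adjusted p, against 1 in the reported fit, and Setdb1 at -0.037. DESeq2 gave 1133 genes lower and 51 at an adjusted p, with none given for Setd7. DESeq2 without VHL-KO replicate 4 gave 1 member at an adjusted p (Setd7), 1425 genes higher, 1093 lower and 1238 at an adjusted p, and Setdb1 at -0.096. No filter gave 634 genes higher and 2 at an adjusted p, and at least 10 counts in every library gave 0 at an adjusted p (355 higher and 606 lower unadjusted). RLE factors separated the labels for 2 members in the lower direction (Setd1a and Setd3), and total counts alone for 3 in the higher (Setd1b, Setd7 and Setdb1). The cause of these differences was not tested.

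Leaving out each library in turn gave 0 to 1 members called higher, 0 at an adjusted p, 1 to 2 separated in the higher direction and 0 to 1 in the lower. Genes called higher ranged from 179 (without double-KO replicate 2) to 1243 (without VHL-KO replicate 4), genes called lower from 206 to 1078, and genes at an adjusted p from 0 to 1. The log2 change ranged from -0.20 to 1.02 for Setd4, from -0.23 to 0.055 for Setd6 and from -0.091 to 0.35 for Setdb1. Of the 16 most alike genes 5 remained without VHL-KO replicate 4. Of 256 counts of list genes under the 16 alternatives 255 were unchanged, and 1 other SET domain gene was called lower without VHL-KO replicate 2. Setdb2 lies near the detection floor, where these libraries could not show a difference. The antisense gene 5031434O11Rik also had few counts and was not tested in the fits. Its counts, 4, 0 and 0 under the VHL-KO label and 10, 19 and 8 under the double-KO label, did not overlap.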
